A study of Gallus gallus with 4 samples.

Results

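Ligands, receptors, SMADs and extracellular regulators of the bone morphogenetic protein (BMP) and transforming growth factor beta (TGF-beta) family were compared between chicken ovary and testis. Members were all probe sets whose symbol in the platform annotation begins with a family name (BMP2 to BMP8, BMPR, BMPER, BAMBI, TGFB, GDF, SMAD, SMURF, ACVR, LTBP, CHRD, GREM, FSTL, NODAL, MSTN or LEFTY, and NOG), leaving out GDF9. The rule found 51 genes, measured by 92 probe sets, of 13008 genes with a symbol and 38382 probe sets tested. Whole gonads came from 17-week-old birds of inbred CB congenic lines of White Leghorn origin. The labels name no treatment and no transgene. RNA of 4 animals was combined in each pool, and each of 2 ovary pools and 2 testis pools was hybridised to 1 Affymetrix chicken array. The values are log2 expression values as deposited. The pools are of different birds, so p-values measure the spread between pools and not between single animals.

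Ligands of this family are secreted dimers that bring together type I and type II receptor serine/threonine kinases at the cell surface. Receptors for TGF-beta, activin and nodal phosphorylate SMAD2 and SMAD3, while those for BMPs phosphorylate SMAD1, SMAD5 and SMAD9. SMAD6 and SMAD7 inhibit the receptors, SMURF ubiquitin ligases remove receptors and SMADs, and secreted proteins such as noggin and chordin bind BMPs before they reach a receptor. In vertebrate gonads the family is known for its part in follicle growth, granulosa cell function and Sertoli cell function.

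Of the 51 genes, each represented by its brightest probe set, 19 were higher in ovary, 7 were higher in testis and 25 did not pass (limma, with Benjamini-Hochberg adjusted p under 0.05 over all 38382 probe sets). Over all 13008 genes the same test called 53.0%, with 28.7% higher in ovary and 24.3% higher in testis. The 26 called members are 51% of the family, a share close to that over all genes. By direction, the ovary-higher members made up 37.3% and the testis-higher members 13.7%. A called difference of 4-fold or more was seen in 10 members toward ovary and in 2 toward testis, and 11.9% and 10.9% of all genes reached this size. By single probe sets, 33 of 92 were called (25 toward ovary and 8 toward testis), which is 35.9% against 35.6% of all probe sets tested (18.2% toward ovary and 17.4% toward testis). The median difference was 0.07 on the log2 scale over the members and 0.01 over all genes (ovary minus testis, as are all differences given here). With a pool left out, the lone pool of that organ was assumed to vary like the pools of the other organ, which gave the spread together with the moderation of limma across probe sets. Without testis pool 1, 9 of the ovary calls and 4 of the testis calls were kept, and without testis pool 2 they were 8 and 4. A further 4 members passed without each of these pools (ACVR1B, FSTL4, LTBP2 and NODAL without pool 1, and ACVR1B, FSTL4, LEFTY1 and BMP5 without pool 2), as did GDF3 and FSTL1 without ovary pool 1 and FSTL1 without ovary pool 2. These gains set a single array against the gap between the other pools and are not read as calls. Shares over all genes with a pool left out count such gains too, so they are not set beside the kept calls. They are given further below with family shares counted the same way. For calls kept, without a testis pool or through every omission as given next, the share over all genes was not computed. Whichever single pool was left out, the call was kept by TGFB2, BMP2, TGFBR2L, BMPR1B, BAMBI, ACVR2A and SMURF1, higher in ovary. GDF10, ACVR1C and CHRDL2, higher in testis, kept it too, but both ovary pools of each were at background. Without a testis pool their spread came from the gap between background values, which was 0.0028 for CHRDL2. Keeping the call there thus adds little, as with the gains.

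**Figure D1:**
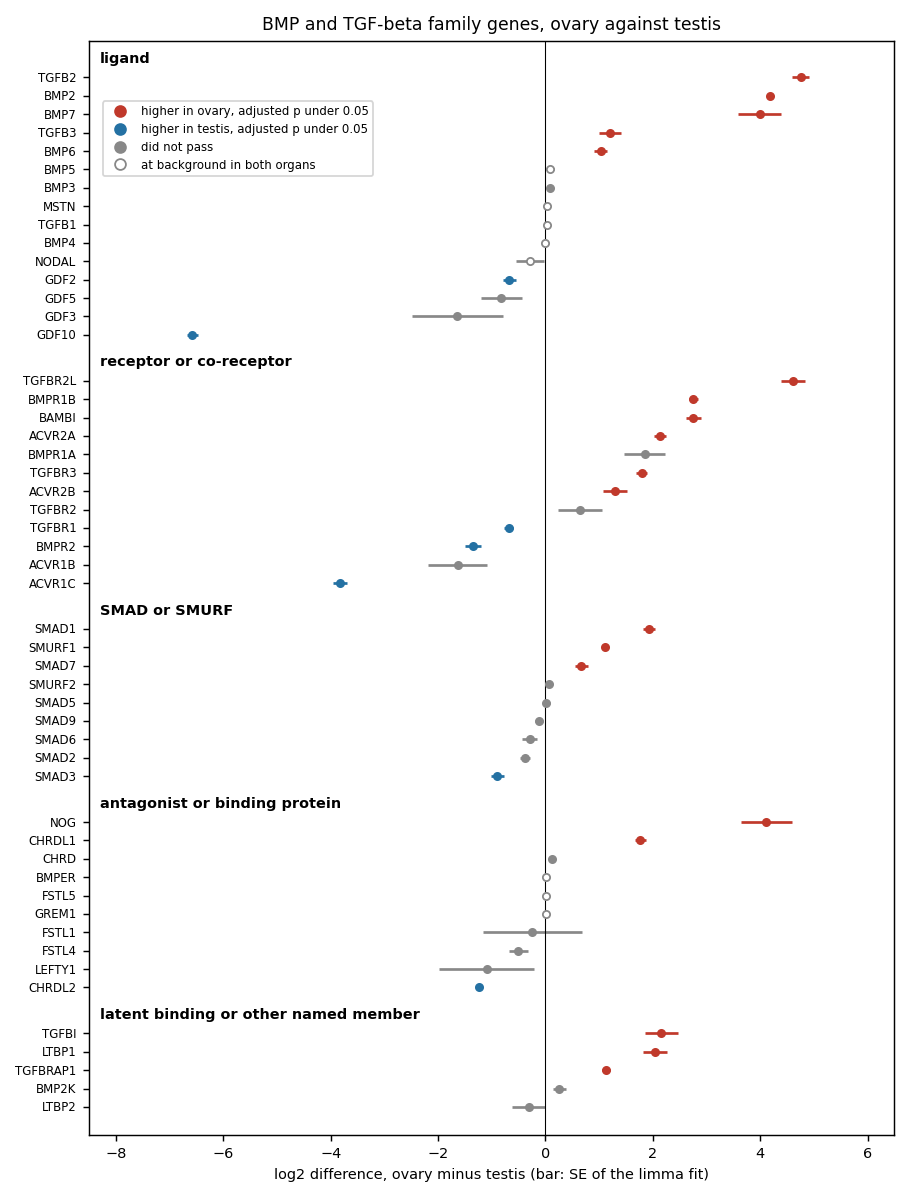
Log2 difference between ovary and testis (ovary minus testis, horizontal axis) of the 51 family genes, grouped by role, with the SE of the limma fit as bars; red and blue points passed at an adjusted p under 0.05 and open points were at background in both organs. Points called toward ovary (red) lie in every group, while GDF10 at -6.58 lies far to the testis side.

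A value was taken as background at or below log2 3.32, which is where 99% of the values of 689 probe sets named for other sequences fell, and each array had 55.1% to 55.7% of its probe sets above it. Across probe sets the ovary pools correlated with each other at r = 0.991 and the testis pools at 0.995, against 0.825 to 0.834 between organs. All 6 ovary markers (FOXL2, CYP19A1, ZP2, ZP3, WNT4 and BTG4) were higher in ovary, and all 6 testis markers (DMRT1, SOX9, STRA8, SYCP3, PIWIL1 and CLDN11) were higher in testis. Markers of several other cell types differed between the organs as well. All 9 stroma and fibroblast markers were higher in ovary, with a summed linear level of 32769.7 to 33732.5 in ovary and 13235.3 to 14213.1 in testis. Of 7 endothelial markers 4 were higher in ovary and 1 in testis (summed level 2547 to 2587 against 552 to 643), with KDR at background in testis. Both epithelial markers, EPCAM and CDH1, and both haemoglobin genes were higher in ovary, and 3 of 4 adrenal markers were too, with all 4 at background in testis. Of 7 leukocyte markers 3 were higher in ovary and 2 in testis, and CD79B was at background in both organs. By limma 0 of 5 smooth muscle markers were called and 1 had an unadjusted p under 0.05, with ACTA2 at background in both organs. Of 3 oviduct markers 1 was called in each direction. The one called toward testis, TF, had 2 of its 4 probe sets called toward ovary and 1, the brightest, toward testis. The part of these cell types in the differences below was not tested. In whole organs fewer cells of a type and less RNA per cell cannot be told apart.

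Among the 15 ligand genes, 5 were called toward ovary and 2 toward testis. These are 33.3% and 13.3%, beside 28.7% and 24.3% of all genes. TGFB2, which encodes an isoform of TGF-beta, read log2 10.65 and 10.67 in the ovary pools and 6.09 and 5.72 in the testis pools. Both ovary pools stood far above both testis pools, a difference of 4.76 (27-fold, SE 0.16, limma BH-adjusted p = 0.00218). BMP2, a ligand of the BMP branch, read 11.62 and 11.66 in ovary and 7.52 and 7.39 in testis. Its ovary pools were again well apart from its testis pools and nearly equal to each other, and the difference was 4.18 (18.2-fold, SE 0.062, BH-adjusted p = 0.000796). A second BMP2 probe set differed by 5.84 with testis at background (at least 30.3-fold, BH-adjusted p = 0.00121), and the third was at background in both organs.

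BMP7, a BMP ligand known from kidney development, read 6.10 and 7.03 in ovary and 2.50 and 2.65 in testis. On this probe set testis lay at background in both pools, so that ovary was higher by at least 9.47-fold (BH-adjusted p = 0.013). It was the only 1 of 3 probe sets called. Another read 3.66 and 3.53 in ovary and 3.45 and 3.37 in testis and did not pass (difference 0.18, BH-adjusted p = 0.183). The third was at background in both organs. TGFB3 was 2.3-fold higher (7.64 and 7.98 against 6.45 and 6.77, BH-adjusted p = 0.0371) and BMP6, a ligand that mammalian oocytes make, 2.04-fold higher in ovary (8.33 and 8.53 against 7.51 and 7.30, BH-adjusted p = 0.0182). In TGFB3 and BMP6 the pools of an organ were up to 0.34 apart, while the ovary pools of BMP7 were 0.92 apart. A second TGFB3 probe set differed by 1.27 and did not pass (BH-adjusted p = 0.0755).

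GDF10, a relative of BMP3, went the other way and had the largest measured difference of all 51 genes. It read 2.75 and 2.65 in the ovary pools, both at background, and 9.38 and 9.17 in the testis pools. Testis was at least 62-fold higher (difference -6.58, SE 0.1, BH-adjusted p = 0.000832). GDF2, a ligand known for acting on endothelium, was close to background throughout (3.01 and 3.07 in ovary, 3.58 and 3.83 in testis) and at least 1.3-fold higher in testis (BH-adjusted p = 0.0377). BMP3, the relative of GDF10, read 4.45 and 4.54 in ovary and 4.37 and 4.46 in testis, and these pools overlapped (difference 0.08, BH-adjusted p = 0.468).

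Of the other ligands, BMP4, BMP5, MSTN, TGFB1 and NODAL were at background in both organs, so that no level was measured for them. Their differences lay between -0.29 and 0.09. GDF3 read 7.01 and 5.08 in ovary and 7.88 and 7.48 in testis, and GDF5, a ligand known from joint formation, 4.20 and 4.34 against 5.53 and 4.65. Neither passed (BH-adjusted p = 0.31 and 0.263), with ovary pools of GDF3 1.93 apart. The calls of BMP7 ended without testis pool 1 (BH-adjusted p = 0.132) and without testis pool 2 (0.124), and those of BMP6 without those pools (0.0964 and 0.116) and without ovary pool 2 (0.0581). TGFB3 lost its call with any single pool left out (0.0621 to 0.188), and GDF2 lost its call without ovary pool 1 (0.135), ovary pool 2 (0.118) and testis pool 2 (0.0666). The difference of GDF3 was -2.61 without ovary pool 1.

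**Figure D2:**
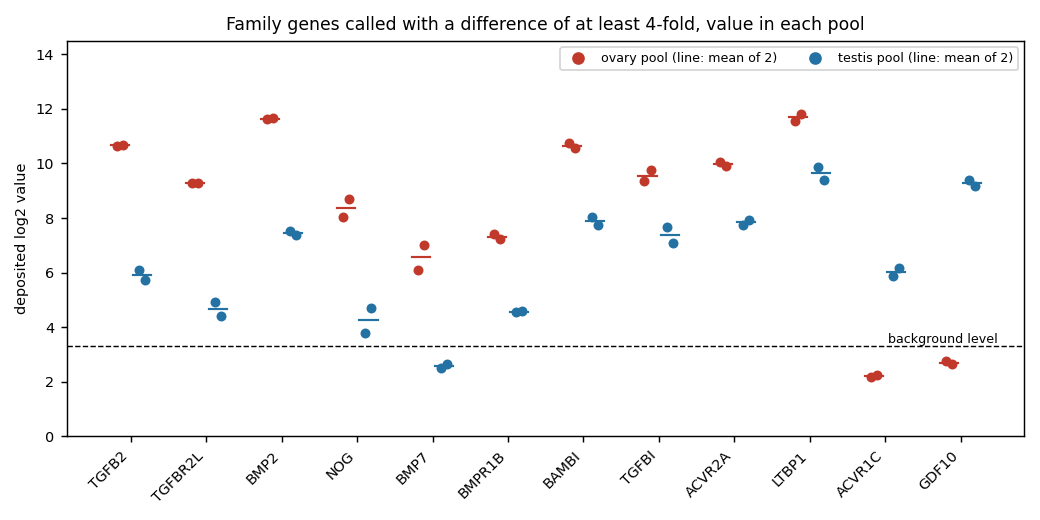
Deposited log2 value (vertical axis) in each ovary pool (red) and testis pool (blue) for the 12 family genes called with a difference of at least 4-fold, with short lines at the mean of each organ and a dashed line at the background level of 3.32. Testis is below the line for BMP7, as ovary is for ACVR1C and GDF10.

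Of the 12 receptors and co-receptors, 6 were higher in ovary, 3 were higher in testis and 3 did not pass. The calls are 50% and 25%, beside 28.7% and 24.3% of all genes. In both directions together, 75% were called against 53.0% of all genes. None of the 12 was at background in both organs, and of all genes above background in at least 1 organ 64.1% were called. These differences in share were not tested. The gene listed as TGFBR2L read 9.28 and 9.27 in ovary and 4.92 and 4.41 in testis. Its difference of 4.61 (24.4-fold, SE 0.22, limma BH-adjusted p = 0.00356) came from 1 of its 3 probe sets, and the others were dim in testis and in at least 1 ovary pool. TGFBR2 itself, the type II receptor of TGF-beta, read 3.51 and 2.57 in ovary and 2.54 and 2.26 in testis, at or near background, and did not pass (BH-adjusted p = 0.414). BMPR1B, a BMP type I receptor gene in which a mutation raises ovulation rate in sheep, read 7.41 and 7.24 in ovary and 4.54 and 4.59 in testis. The organs were apart by 2.76 (6.75-fold, SE 0.079, BH-adjusted p = 0.00177), with the pools of each organ within 0.17 of each other.

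BMPR1A, the other BMP type I receptor measured, read 6.97 and 7.30 in ovary and 5.70 and 4.87 in testis. Both ovary pools were above both testis pools, but the testis pools were 0.83 apart and the difference of 1.85 did not pass (BH-adjusted p = 0.0559). It passed with arrays centred on their medians (BH-adjusted p = 0.0155), with dim probe sets left out of the adjustment (0.0123) and with a variance trend (0.0318). It also passed with the mean over the probe sets of each gene (0.0266), but BMPR1A has 1 probe set, so its own values were the same there. It did not pass with quantile normalization, no moderation, a floor at background or the pool number as a block. With a pool left out its difference ranged from 1.44 to 2.26. BMPR2, a BMP type II receptor gene, was higher in testis instead, at 9.36 and 9.11 against 7.77 and 8.00 in ovary (2.55-fold, BH-adjusted p = 0.0148). The type I and type II receptor genes of BMPs thus did not all lie on one side.

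Activin and nodal receptors also divided. ACVR2A and ACVR2B, the activin type II receptor genes, were higher in ovary. ACVR2A read 10.05 and 9.89 in ovary and 7.74 and 7.94 in testis (4.39-fold, SE 0.11, BH-adjusted p = 0.00404). A second ACVR2A probe set was at background in both organs. ACVR2B read 7.37 and 7.31 in ovary and 5.79 and 6.30 in testis (2.45-fold, BH-adjusted p = 0.0385). ACVR1C, a type I receptor gene for nodal and activin B known as ALK7, was higher in testis. It read 5.89 and 6.17 there and 2.15 and 2.26, at background, in ovary (at least 6.54-fold, SE 0.13, BH-adjusted p = 0.0022). ACVR1B, the main activin type I receptor gene, was also at background in ovary (2.81 in both pools). Its testis pools read 5.09 and 3.79, and the difference of -1.64 did not pass (BH-adjusted p = 0.153), except with dim probe sets left out of the adjustment (0.0456). TGFBR1, the TGF-beta type I receptor gene, was 1.61-fold higher in testis (8.14 and 8.29 against 7.47 and 7.59, BH-adjusted p = 0.0181).

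BAMBI, which encodes a decoy receptor without a kinase domain, read 10.73 and 10.58 in ovary and 8.05 and 7.76 in testis, a difference of 2.75 (6.75-fold, SE 0.14, BH-adjusted p = 0.00399). TGFBR3, which encodes the co-receptor betaglycan, was 3.46-fold higher in ovary (7.43 and 7.65 against 5.78 and 5.72, BH-adjusted p = 0.0043). In both genes the organs were several times further apart than the pools of an organ. The call of TGFBR3 ended without testis pool 1 (BH-adjusted p = 0.0663) and without testis pool 2 (0.0691), and that of BMPR2 without the same pools (0.103 and 0.0864). ACVR2B ended without ovary pool 1 (0.133) and ovary pool 2 (0.125), and TGFBR1 with any single pool left out (0.0526 to 0.104). The difference of ACVR1B was -0.99 without testis pool 1 and -2.28 without testis pool 2.

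Among 9 SMAD and SMURF genes, 3 were called toward ovary and 1 toward testis, and none of the 4 differed by 4-fold at its brightest probe set (limma). The calls are 33.3% and 11.1% of these genes, beside 28.7% and 24.3% of all genes. SMAD1, a BMP-branch SMAD, read 7.99 and 8.15 in ovary and 6.24 and 6.04 in testis, and was 3.82-fold higher in ovary (SE 0.11, BH-adjusted p = 0.00479). Its relatives SMAD5 and SMAD9 were close to equal in the organs, with differences of 0.02 (95% interval -0.22 to 0.25) and -0.11 (-0.36 to 0.13). Neither gene passed (BH-adjusted p = 0.92 and 0.41).

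SMAD3, a SMAD of the TGF-beta and activin branch, was higher in testis, at 9.56 and 9.29 against 8.49 and 8.55 (1.87-fold, SE 0.12, BH-adjusted p = 0.0227). Its second probe set differed in the same direction by -2.43 (3.36 and 3.62 in ovary, 5.95 and 5.90 in testis, BH-adjusted p = 0.00333). SMAD2, which shares this branch, read 10.45 and 10.51 in ovary and 10.96 and 10.75 in testis. That difference of -0.38 did not pass (BH-adjusted p = 0.0848). The inhibitory SMAD7 was 1.59-fold higher in ovary (6.60 and 6.87 against 6.04 and 6.09, BH-adjusted p = 0.0424), and the inhibitory SMAD6 had a difference of -0.29 that did not pass (BH-adjusted p = 0.256).

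SMAD2 and SMAD7 are Z-linked, and cocks carry a pair of Z chromosomes where hens carry a single Z. Over the 609 genes placed on Z the median difference was -0.39. Of them 252 (41.4%) were higher in testis and 101 (16.6%) in ovary, beside 24.3% and 28.7% of all genes. SMAD2 lay near this median, while SMAD7 lay on the ovary side. The part of Z linkage in the values of these genes was not tested. The ubiquitin ligase gene SMURF1 was 2.14-fold higher in ovary (9.46 and 9.43 against 8.30 and 8.40, SE 0.046, BH-adjusted p = 0.00294). SMURF1 and SMAD7 were each called by 1 of 3 probe sets. The related SMURF2 had overlapping pools at its brightest probe set (8.33 and 8.24 against 8.17 and 8.26, BH-adjusted p = 0.515). A dimmer SMURF2 probe set read 3.73 and 3.58 in ovary and 4.30 and 4.10 in testis (difference -0.55). It did not pass (BH-adjusted p = 0.0508), and the third had overlapping pools. The call of SMAD1 ended without testis pool 2 (BH-adjusted p = 0.0521), and that of SMAD7 without testis pool 1 (0.249) and testis pool 2 (0.203). SMAD3 ended without ovary pool 1 (0.0912), ovary pool 2 (0.0831) and testis pool 1 (0.0515).

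Of 10 genes for secreted antagonists and binding proteins, 2 were higher in ovary and 1 in testis (limma). These are 20% and 10%, beside 28.7% and 24.3% of all genes. NOG, which encodes the BMP antagonist noggin, read 8.05 and 8.69 in ovary and 3.80 and 4.72 in testis. The organs were 4.11 apart (17.3-fold, SE 0.48, BH-adjusted p = 0.0174), with the testis pools 0.92 apart and not far above background. CHRDL1, a chordin-like BMP antagonist gene, was bright in both organs, at 11.84 and 12.05 in ovary and 10.12 and 10.24 in testis (3.41-fold, SE 0.1, BH-adjusted p = 0.00506). A second CHRDL1 probe set was at background in both organs. CHRDL2, a relative of CHRDL1, was at background in ovary (2.36 in both pools) and just above it in testis (3.64 and 3.56). It was at least 1.21-fold higher in testis (BH-adjusted p = 0.00197). CHRD, the gene of chordin itself, read 5.78 and 5.80 against 5.70 and 5.65 and did not pass (BH-adjusted p = 0.0896).

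GREM1, BMPER and FSTL5 were at background in both organs. LEFTY1, a nodal antagonist gene, was at background in both ovary pools and in testis pool 2 (2.76), and read 4.83 in testis pool 1. Its difference was -1.10 with all pools (BH-adjusted p = 0.497) and -2.13 without testis pool 2. FSTL1, a secreted glycoprotein gene, had ovary pools of 6.13 and 3.97 around testis pools of 5.37 and 5.22. Its difference was -1.32 without ovary pool 1 and 0.83 without ovary pool 2, so that its sign depended on which ovary pool was kept.

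FSTL4 gave opposite signs by probe set. The brightest read 6.91 and 6.89 in ovary and 7.60 and 7.21 in testis (difference -0.50, BH-adjusted p = 0.155), and another was higher in ovary (4.65 and 4.14 against 2.05 and 1.95, at least 2.1-fold, BH-adjusted p = 0.011). Averaged over its 4 probe sets, FSTL4 was higher in ovary by 0.85 (BH-adjusted p = 0.00645), while the brightest probe set differed by -0.30 without testis pool 1 and by -0.70 without testis pool 2. No member had probe sets called in both directions. The call of NOG ended without ovary pool 2 (0.0625), testis pool 1 (0.0969) and testis pool 2 (0.0786), and that of CHRDL1 without testis pool 1 (0.0693) and testis pool 2 (0.066).

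**Figure D3:**
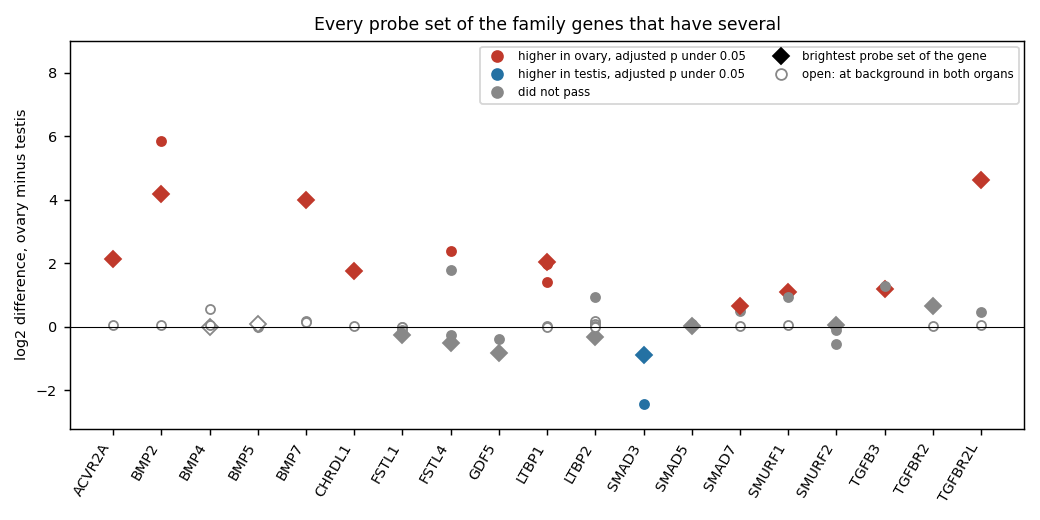
Log2 difference between ovary and testis (vertical axis) for every probe set of the 19 family genes that have several, with diamonds for the brightest probe set and open symbols at background in both organs. The called probe sets of LTBP1 and BMP2 lie on the ovary side and those of SMAD3 on the testis side, and FSTL4 has points on both sides of 0.

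LTBP1, which encodes a protein that holds latent TGF-beta in the extracellular matrix, was the member with the most called probe sets. Its brightest read 11.57 and 11.80 in ovary and 9.89 and 9.41 in testis (4.11-fold, SE 0.23, limma BH-adjusted p = 0.0161). In all, 5 of 7 probe sets were higher in ovary. For 4 of them the difference was 1.97 to 2.04, while the remaining called one had testis at background and was at least 1.65-fold higher in ovary, and the other two were at background in both organs. LTBP2 was at or near background on 7 of 7 probe sets and was not called. TGFBI, a matrix protein gene that TGF-beta induces, read 9.34 and 9.75 in ovary and 7.69 and 7.09 in testis (4.47-fold, SE 0.31, BH-adjusted p = 0.0268). TGFBRAP1, which encodes a protein that binds TGF-beta receptors, was 2.18-fold higher in ovary (4.99 and 5.12 against 3.99 and 3.87, BH-adjusted p = 0.00672), and the kinase gene BMP2K did not pass (difference 0.26, BH-adjusted p = 0.262). The calls of LTBP1 (0.0551 to 0.0728) and TGFBI (0.0664 to 0.12) ended with any single pool left out, although another LTBP1 probe set had the smaller SE of 0.042 (difference 1.97, BH-adjusted p = 0.00121). TGFBRAP1 ended without testis pool 1 (0.0642) and testis pool 2 (0.0715). The difference of LTBP2 was -0.67 without testis pool 1.

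Genes known as targets of BMP or TGF-beta signalling were looked at beside the members. Of 23 measured, 12 were called toward ovary and 2 toward testis, with a median difference of 0.92 (limma). These are 52.2% and 8.7%, beside 28.7% and 24.3% of all genes and their median of 0.01, and the difference was not tested. SNAI2, a transcription factor gene of epithelial-mesenchymal transition, was at least 143-fold higher in ovary (10.47 and 10.50 against 2.90 and 2.80, BH-adjusted p = 0.000369). ID1, a classical BMP target that encodes an inhibitor of helix-loop-helix factors, read 12.48 and 11.98 in ovary and 6.17 and 7.01 in testis (49.7-fold, BH-adjusted p = 0.00748). MSX1, a homeobox gene, read 9.12 and 9.46 against 3.24 and 4.16, with testis pool 1 at background (difference 5.59, BH-adjusted p = 0.0076), and BHLHE40 was at least 10.8-fold higher in ovary (BH-adjusted p = 0.0154). Higher in testis were SKIL, which encodes a SMAD co-repressor that TGF-beta induces (5.58-fold, BH-adjusted p = 0.0423), and KLF10, a TGF-beta-induced zinc finger gene (3.97-fold, BH-adjusted p = 0.0294). BHLHE40 was called by 1 of 4 probe sets, with its ovary pools 1.22 apart. SKIL was called by 2 of 4 and KLF10 by 2 of 2.

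The other ID genes, chosen after their values were seen, did not all follow ID1. ID4 was 9.08-fold higher in ovary (BH-adjusted p = 0.00975), ID3 had a difference of 3.20 that did not pass (BH-adjusted p = 0.106), and ID2 one of -0.36 (BH-adjusted p = 0.0588). COL1A1 and COL1A2, which stand in both the target and the stroma list, were 3.23-fold and 2.06-fold higher in ovary. COL1A2 was called by 1 of 8 probe sets. The call of ID1 ended without testis pool 1 (BH-adjusted p = 0.0553), and those of BHLHE40 and KLF10 without testis pool 1 (0.141 and 0.201) and testis pool 2 (0.14 and 0.183). SKIL ended with any single pool left out (0.0828 to 0.164), and COL1A2 without testis pool 1 (0.123) and testis pool 2 (0.139).

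Among 18 other extracellular regulators, 8 (44.4%) passed on the ovary side and 1 (5.56%) on the testis side, with a median difference of 0.44. Over all genes the shares were 28.7% and 24.3% and the median 0.01, and the difference from these was not tested. DCN, 1 of the 8, stands in the stroma list as well. The BMP antagonist genes SOSTDC1 (8.33 and 8.76 against 2.32 and 2.30, at least 37.2-fold, limma BH-adjusted p = 0.00184) and NBL1 (11.78 and 11.21 against 8.31 and 7.87, 10.6-fold, BH-adjusted p = 0.0106) were higher in ovary, as were NOG and CHRDL1. Such genes did not all lie on this side, since CHRDL2 was higher in testis and CHRD did not pass. GREM1, BMPER, SOST and CER1 were at background in both organs. ITGB6, an integrin subunit gene whose product releases latent TGF-beta, was at least 11.5-fold higher in ovary (BH-adjusted p = 0.00171), and TLL1, a chordin-cleaving protease gene, 12-fold (BH-adjusted p = 0.0208). PCSK6, a convertase gene whose product cleaves family precursors, was 11.9-fold higher in testis (9.04 and 9.01 against 5.19 and 5.72, BH-adjusted p = 0.00565). ITGB6 and NBL1 were each called by 1 of 2 probe sets, and PCSK6 by 2 of 4. The calls of NBL1 and PCSK6 ended without testis pool 1 (0.0875 and 0.0825) and testis pool 2 (0.0985 and 0.0825), and that of TLL1 without ovary pool 1 (0.0839) and ovary pool 2 (0.0795).

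**Figure D4:**
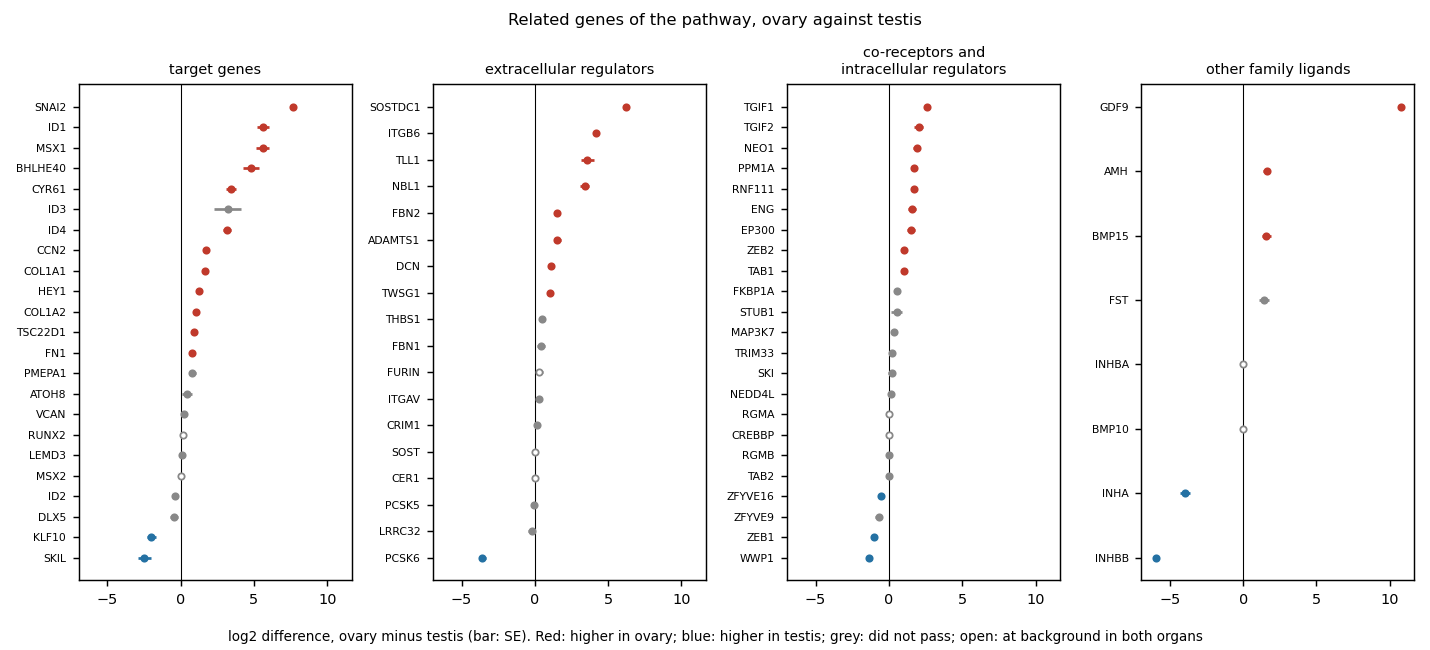
Log2 difference between ovary and testis (ovary minus testis, horizontal axis, SE as bars) of related pathway genes in 4 lists, coloured by call as named under the panels. Among targets SNAI2, ID1 and MSX1 lie beyond 5 on the ovary side, while SKIL and KLF10 lie on the testis side, as does PCSK6 among the extracellular regulators.

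Of 23 co-receptors and intracellular regulators, 9 (39.1%) passed on the ovary side and 3 (13%) on the testis side, with a median difference of 0.37. Beside these stand 28.7% and 24.3% of all genes and their median of 0.01, and the difference was not tested. TGIF1 and TGIF2, which encode SMAD co-repressors, were 6.05-fold and 4.05-fold higher in ovary (limma BH-adjusted p = 0.00253 and 0.0357), NEO1, a receptor gene for BMP co-receptors, 3.7-fold (BH-adjusted p = 0.019) and PPM1A, a SMAD phosphatase gene, 3.34-fold (BH-adjusted p = 0.00129). WWP1, a ubiquitin ligase gene, was 2.53-fold (BH-adjusted p = 0.0086) and the SMAD-binding repressor gene ZEB1 2-fold (BH-adjusted p = 0.00244) higher in testis. NEO1 and WWP1 were each called by 1 of 2 probe sets, and ZEB1 by 2 of 4. The endosomal adaptor gene ZFYVE16 was 1.49-fold higher in testis (BH-adjusted p = 0.0397). It is Z-linked, and its difference was -0.58 where the median over genes on Z was -0.39. The part of Z linkage was not tested here either. TGIF2 (0.0701 to 0.123) and NEO1 (0.0573 to 0.0911) lost the call with any single pool left out, and ZFYVE16 without testis pool 1 (0.23) and testis pool 2 (0.207). Of 8 measured genes for family ligands outside the rule and for follistatin (FST), 37.5% were higher in ovary and 25% in testis. Over all genes the shares were 28.7% and 24.3%, and the difference was not tested. GDF9, AMH and BMP15 (2.97-fold, BH-adjusted p = 0.0485) were higher in ovary. AMH was called by 1 of 4 probe sets and GDF9 by 1 of 2. The call went toward testis for the activin and inhibin subunit genes INHBB (2 of 2 probe sets) and INHA (1 of 2). That of BMP15 ended with any single pool left out (0.0544 to 0.247), that of INHA without testis pool 1 (0.0816) and testis pool 2 (0.0725), and that of AMH without ovary pool 1 (0.1), ovary pool 2 (0.116) and testis pool 2 (0.0638).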

How the data were processed

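The authors deposited log2 expression values per probe set for 4 arrays. The submitters' processing notes name GCRMA and MAS5 without saying what each was used for, and the near-equal quantiles of the deposited log2 values are of the kind GCRMA gives. Per the series design the authors checked the arrays with affyPLM. No further normalization was applied. Of 38535 probe sets, 153 control probe sets were left out. Symbols came from the platform annotation, updated by gene number or symbol to an annotation of assembly GRCg7b, from which no coordinates were used.

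Ovary was compared with testis with limma 3.58.1 under R 4.3.3 (two-sided moderated test of lmFit and eBayes, 2 residual degrees of freedom). The 38382 p-values were adjusted together by Benjamini-Hochberg (BH) and called under 0.05. A gene was represented by its brightest probe set over the 4 arrays. Where both pools of an organ were at or below the background level, "at least N-fold" sets the mean of the brighter organ against that level. With 2 against 2 pools the smallest exact permutation p is 0.333. The number of arrays limits the precision. The fit was tested on simulated data.

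The family members and gene lists were chosen with earlier results of these data known. Pool values were given for members called with a difference of at least 4-fold and, for reading beside them, for most others. From related lists up to 4 called genes per direction were named. No list was tested as a set. Alternatives were a filter on dim probe sets, a variance trend, no moderation, quantile normalization, median centring, a floor at background, the pool number as a block, each pool left out and the mean over a gene's probe sets.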

Additional observations from a re-analysis of the deposited data

How the results depend on the processing

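Without variance moderation the counts fell to 4570 ovary-higher and 4284 testis-higher probe sets, 11 and 3 family genes and 16 and 4 family probe sets. The 11 and 3 genes are 21.6% and 5.88% of the family, beside 19.3% and 16.6% of all genes. With a single pool left out, ovary-higher and testis-higher probe sets ranged from 3734 to 6449 and 4053 to 6007, family genes from 9 to 15 and 4 to 8, and family probe sets from 14 to 24 and 5 to 10. These family counts include calls gained with a lone array in an organ. The gene counts are 17.6% to 29.4% of the family toward ovary and 7.84% to 15.7% toward testis. Over all genes the same omissions gave 15.7% to 25% and 13.8% to 21.3%, which rest on a lone array as well. With the pool number as a replicate block, the family genes called were 14 toward ovary and 4 toward testis, and 8 calls ended. The 14 and 4 genes are 27.5% and 7.84% of the family, beside 24.4% and 20.5% of all genes. Same-numbered pools share only a number, and their deviations correlated at 0.052. The other alternatives kept these counts within 1.5 times. The floor at background ended 5 family calls, those of ACVR2B (BH-adjusted p = 0.071), GDF2 (0.17), SMAD7 (0.0758), TGFB3 (0.0687) and TGFBI (0.0527), and left 15 toward ovary and 6 toward testis. The 15 and 6 genes are 29.4% and 11.8% of the family, beside 24.8% and 21% of all genes. The floor also ended the calls of BHLHE40 (0.0579), KLF10 (0.0569), SKIL (0.0772), TGIF2 (0.067) and ZFYVE16 (0.0712) among the related genes named. With the mean over probe sets GDF5 (0.0149) and SMAD2 (0.0485) passed, and NBL1 lost its call (0.0851). SMAD2 has 1 probe set, so its own values were the same there.

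Signs turned for genes that had not passed. With the mean over a gene's probe sets, differences were 0.20 for BMP4, 0.85 for FSTL4, 0.14 for LTBP2 and -0.19 for SMURF2. Median centring gave 0.056 for BMP4, and quantile normalization -0.0051 for GREM1 and -0.034 for SMAD5. With a pool left out, differences ranged from -1.32 to 0.83 for FSTL1, -0.67 to 0.048 for LTBP2, -0.59 to 0.019 for NODAL, -0.059 to 0.091 for SMAD5, -0.031 to 0.0030 for BMP4, -0.0018 to 0.037 for BMPER and -0.00049 to 0.0045 for GREM1. The cause was not tested. No called member turned its sign under any alternative listed. SMAD7 also lost its call with a variance trend (BH-adjusted p = 0.0509), quantile normalization (0.051), no moderation (0.117) and the replicate block (0.0677). The floor gave no value for the 8 members at background in both organs, for which the array set only an upper limit.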
